A study of Mus musculus with 12 samples.

Results

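The E2F transcription factors, the retinoblastoma family of pocket proteins and the E2F target Mybl2 were followed in dividing mouse CD4 T blast cells that were kept in interleukin-2 (IL-2) or deprived of it, before and after stimulation. The genes were taken by name, and 10 of the 24439 gene names in the deposited tables belong to this group (E2f1, E2f2, E2f3, E2f4, E2f7, E2f8, Rb1, Rbl1, Rbl2 and Mybl2). All 10 were among the 12442 genes that passed the filter on low values and were tested. E2F factors bind the promoters of genes for DNA replication and cell division. In cells that have left the cycle, E2f4 sits at these promoters with p130, the product of Rbl2, and keeps them low. When cyclin-dependent kinases phosphorylate the pocket proteins, the activating factors E2f1, E2f2 and E2f3 are freed, their targets are transcribed, and the targets include E2f1, E2f7, E2f8, Rbl1 and Mybl2 themselves. In T cells, IL-2 is the growth factor that carries cells activated through the T cell receptor into repeated division.

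The cells were CD4 T cells from the spleens of C57BL/6 C42 mice, a line that carries a fragment of the human IL3/CSF2 locus as a transgene in every group. They were activated for 40 h with 2 µg/ml Concanavalin A and then grown in 50 U/ml IL-2 as T blast cells (TB). There were 4 groups of 3 libraries. TB IL-2 cells stayed in IL-2, and TB IL-2nil cells had IL-2 removed for 16 h. TB+ IL-2 and TB+ IL-2nil cells were grown in these 2 ways and then treated for 2 h with 20 ng/ml PMA and 2 µM of the calcium ionophore A23187 (PMA/I), which stands in for signals from the T cell receptor. For the time in IL-2 before withdrawal the sources differ, with 30 h in the methods and roughly 2 days in the labels. No source used here gives an age for these mice or says that replicates came from separate animals, so the tests measure the spread between these libraries. Total RNA depleted of ribosomal RNA was sequenced, and levels are given as TPM, transcript amounts corrected for gene length and brought to the same sum in each library, after scaling of all libraries to a common upper quartile. In RNA from whole cultures, fewer cells of a type and less RNA per cell cannot be told apart.

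Before any comparison, 2 libraries have to be set apart, because their values go against their labels. The library labelled TB IL-2nil replicate 3 had 1368 FPKM of Il2, a gene induced by PMA/I, and the library labelled TB+ IL-2 replicate 3 had 0.290 FPKM. The other libraries labelled as stimulated lay between 1095 and 2374 FPKM and the other unstimulated libraries between 0 and 1.18 FPKM. For comparison with the study's own table of differentially expressed genes, the deposited values were rescaled to TPM and quantile-normalized. The values in that table under each of these 2 names then matched the library with the other label, for 100% of 1381 genes within 0.1%. Both libraries were placed as in that table here, and the counts of these 10 genes that passed are also given by label and without both of these relabelled libraries. Replicate 3 of TB IL-2nil and of TB+ IL-2 below is the library placed there. Relative depth, read from the steps between low values, ran from 0.408 to 1.24 of the median over libraries, and short non-coding RNAs took 16.6 to 53.2% of the deposited signal. Sums of marker genes are given in TPM before the scaling to a common upper quartile. The defining T cell markers were present in every library, with 1143 to 3075 TPM over 6 genes, while 3 NK cell genes together stayed at or under 0.295 TPM. Markers of other cells were low, with 1.39 to 4.74 TPM over 5 myeloid genes and 5.41 to 42.8 TPM over 2 CD8 T cell genes. The 5 B cell markers moved with IL-2, from 25.1 to 34.0 TPM in TB IL-2nil down to 6.82 to 14.7 TPM in TB IL-2, and lay at 4.58 to 12.5 TPM in TB+ IL-2nil and 2.48 to 3.79 TPM in TB+ IL-2. Their part in the results below was not tested.

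Promoter windows of the genes are shown first, because E2F factors regulate several genes of their own family through their promoters. RefSeq windows of 300 bases (GRCm38.p6, 250 before the annotated start to 50 after) were at hand for 8 of the 10 genes, with 2 starts each for E2f2 and E2f3 and none for E2f4 and Rb1. Both strands were searched for 4 spellings of the E2F site (TTTCCCGC, TTTGGCGC, TTTCGCGC and TTTGCCGC) and for the cell cycle homology region TTTGAA, through which the DREAM complex of E2f4, p130 and the MuvB proteins acts on later cell cycle genes. At least 1 E2F spelling was found in 2.26% of all 32851 windows and in 4 of the 10 windows of these genes, and TTTGAA was found in 17.9% of all windows and in 4 of these 10, with no overlap between matches. The stretches below show, with matches in capitals, the promoters of 6 genes with a match before a start. Those of E2f1 and Mybl2, which rose strongly with IL-2 but held no exact match, are also shown. Each stretch runs 5′ to 3′ in the direction of the gene. E2f3 (chr13:29986064-29986123, minus strand) has both motifs within 23 bases of a start. Rbl1 (chr2:157204535-157204594, minus strand) has an E2F spelling, E2f8 (chr7:48881597-48881656, minus strand) has TTTGAA read on the opposite strand, and E2f7 (chr10:110745219-110745278, plus strand) has an E2F spelling 198 to 191 bases before its start. Rbl2 (chr8:91069837-91069896, plus strand), the 1 gene of the group that was lower with IL-2, has TTTGAA 201 to 196 bases before its start. E2f2 (chr4:136180722-136180781, plus strand) has TTTGAA 31 to 26 bases before the second of its annotated starts. E2f1 (chr2:154569427-154569486, minus strand) and Mybl2 (chr2:163054575-163054634, plus strand) hold none of these exact spellings in their windows, which says nothing of binding. Near matches were not searched for, and the Mybl2 stretch holds gcgggaga near its end, close to GCGGGAAA, the opposite strand of TTTCCCGC. The E2F spelling of E2f2 lies after its first start and is not shown.
E2f3: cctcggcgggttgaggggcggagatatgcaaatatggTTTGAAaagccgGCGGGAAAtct
Rbl1: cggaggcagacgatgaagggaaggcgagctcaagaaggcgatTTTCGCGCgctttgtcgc
E2f8: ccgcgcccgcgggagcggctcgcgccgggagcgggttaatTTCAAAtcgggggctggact
E2f7: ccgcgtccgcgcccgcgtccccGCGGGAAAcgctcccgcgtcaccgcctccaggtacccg
Rbl2: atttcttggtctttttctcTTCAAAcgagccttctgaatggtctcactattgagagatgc
E2f2: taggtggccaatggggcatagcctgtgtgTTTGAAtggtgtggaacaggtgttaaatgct
E2f1: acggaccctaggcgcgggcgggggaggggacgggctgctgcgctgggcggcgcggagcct
Mybl2: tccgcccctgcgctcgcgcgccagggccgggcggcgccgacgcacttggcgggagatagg

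The first comparison asks what IL-2 does to these transcripts in cells that are not stimulated. With IL-2, 8 of the 10 genes were higher than after 16 h without it, 1 was lower and 1 did not pass the test (limma, adjusted p under 0.05). Of all genes tested, 17.3% were higher and 22.3% lower. By more than 3-fold and past the test, 5 of the 10 were higher (E2f1, E2f3, E2f7, E2f8 and Mybl2) and none lower, against 7.42% of all genes in either direction. The median difference of the 10 genes was 1.54 in log2(TPM + 1), against -0.13 over all genes tested. All log2 differences below are on this scale, on which changes at low TPM appear smaller than they are, with the SE of the fit and a Benjamini-Hochberg adjusted p over all genes tested.

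**Figure D1:**
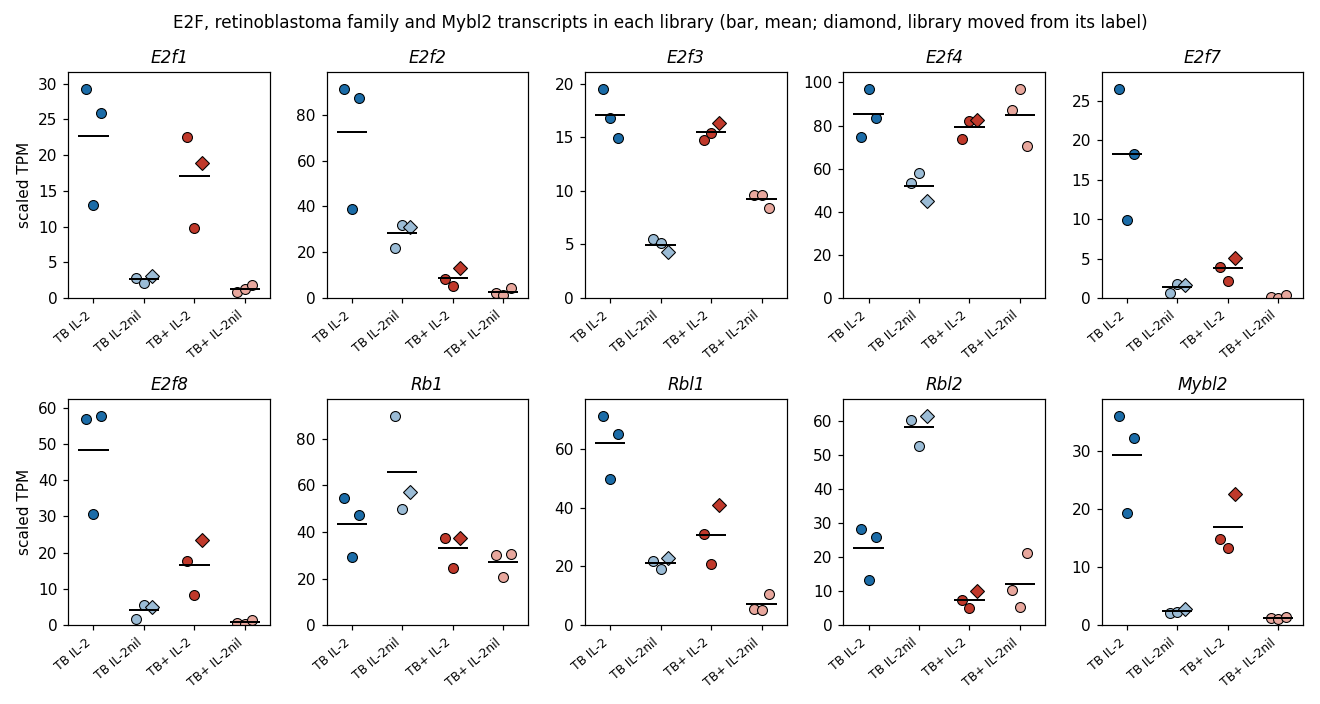
Scaled TPM of each of the 10 genes (y axis, from 0) in the 12 libraries (points) by group (x axis), with the group mean as a bar where no library is listed at 0 and diamonds for the 2 libraries placed against their labels. E2f1, E2f8 and Mybl2 are higher in both groups with IL-2 than in both without, E2f7 is highest in TB IL-2, E2f2 is high in the unstimulated groups, and Rbl2 is highest in TB IL-2nil, at 52.7 to 61.5 TPM.

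Among the activating factors, E2f1 (chromosome 2 from 154385143 to 154395628, minus strand, mm9) rose the most with IL-2. The 3 TB IL-2 libraries had 29.3, 13.01 and 25.9 TPM of E2f1 and the 3 TB IL-2nil libraries 2.83, 2.07 and 3.02 TPM. The groups did not overlap, and the ratio of their means was 8.61. The difference was 2.64 ± 0.34 (SE, adjusted p = 0.000275 by limma). E2f3 (chromosome 13 from 29998444 to 30077537, minus strand) had 19.5, 16.8 and 14.97 TPM in TB IL-2 and 5.51, 5.18 and 4.26 TPM in TB IL-2nil. The replicates of E2f3 lay closer together than those of E2f1, and its difference was 1.59 ± 0.15 (SE, adjusted p = 6.65e-05). The tables give 1 value per gene name, so the long and short forms of E2f3 that start at different promoters are not told apart. E2f2 (chromosome 4 from 135728309 to 135751972, plus strand), the activating factor best known for restraining T cell proliferation, had 91.4, 39.1 and 87.5 TPM in TB IL-2. It kept 21.9, 31.8 and 30.9 TPM in TB IL-2nil, more than either of the other activating factors in those libraries. The difference of E2f2 was 1.26 ± 0.41 (SE, adjusted p = 0.0297), without overlap. It missed the threshold without the 2 relabelled libraries, at 1.32 with an adjusted p of 0.0505, and without any one of TB IL-2 replicates 1 and 3 and of the TB IL-2nil libraries. E2f2 also missed it with a pseudocount of 0.1 (adjusted p = 0.0626), without a filter on low values (0.0901) and without further scaling of TPM (0.0993).

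E2f4 (chromosome 8 from 107821563 to 107829269, plus strand), the repressing partner of p130, was the most abundant E2F in the group means and had the smallest difference of the 6 E2F genes. In TB IL-2 replicates 1 and 3, however, E2f2 was above it, at 91.4 and 87.5 TPM. E2f4 had 74.9, 97.0 and 83.6 TPM in TB IL-2 and 53.4, 57.9 and 45.0 TPM in TB IL-2nil. The groups did not overlap, and the difference was 0.70 ± 0.17 (SE, adjusted p = 0.00782). Without scaling to a common upper quartile it was 0.62 with an adjusted p of 0.11.

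The atypical factors E2f7 and E2f8, which bind DNA without a DP partner and repress E2F targets in the S and G2 phases, had the largest ratios with Mybl2. E2f8 (chromosome 7 from 56121799 to 56136966, minus strand) had 56.9, 30.7 and 57.7 TPM in TB IL-2 and 1.83, 5.50 and 4.998 TPM in TB IL-2nil. Its means differed 11.8-fold, by 3.31 ± 0.42 in log2 (SE, adjusted p = 0.000273). E2f7 (chromosome 10 from 110182495 to 110224440, plus strand) had 26.6, 9.91 and 18.2 TPM with IL-2 and 0.630, 1.82 and 1.62 TPM without. Each library with IL-2 had more E2f7 than each without, and the difference was 2.97 ± 0.36 (SE, adjusted p = 0.000195). Mybl2 (chromosome 2 from 162880423 to 162910424, plus strand), which encodes B-Myb and joins MuvB at G2/M genes once p130 has left, had 35.9, 19.3 and 32.2 TPM against 2.08, 2.21 and 2.88 TPM. Mybl2 had the smallest adjusted p of the group, 2.82e-05, at a difference of 3.11 ± 0.25 (SE) and a 12.2-fold ratio of means.

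The pocket proteins did not move together. Rbl1 (chromosome 2 from 156971629 to 157030270, minus strand), which encodes p107 of cycling cells, had 71.2, 49.6 and 65.0 TPM in TB IL-2 and 21.9, 19.1 and 22.7 TPM in TB IL-2nil. It rose by 1.49 ± 0.29 (SE, adjusted p = 0.00248). Rbl2 (chromosome 8 from 93593956 to 93647743, plus strand), which encodes p130 of resting cells, went the other way, with 28.4, 13.3 and 26.0 TPM in TB IL-2 and 60.3, 52.7 and 61.5 TPM in TB IL-2nil. The groups did not overlap for either gene. The difference of Rbl2 was -1.39 ± 0.42 (SE, adjusted p = 0.022) and missed the threshold without the 2 relabelled libraries (-1.36, adjusted p = 0.0621), without TB IL-2 replicate 2 and without TB IL-2nil replicate 1 or 3. Rbl2 also missed it without a filter (adjusted p = 0.0845) and without further scaling (0.0578). Rb1 (chromosome 14 from 73583480 to 73725629, minus strand), which encodes the retinoblastoma protein itself, had 54.4, 29.3 and 47.2 TPM in TB IL-2 and 89.8, 49.8 and 57.2 TPM in TB IL-2nil. These ranges overlapped, and the difference of -0.58 (95% interval -1.22 to 0.07) did not pass the test, at an adjusted p of 0.139. With the replicate number as a block, in which each replicate is compared within itself, Rb1 passed with an adjusted p of 0.0111.

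Rbl1 and Rbl2 changed places as the more abundant of the pair. The ratio of Rbl1 to Rbl2 in TPM was 2.91 ± 0.71 (SD, n = 3) in TB IL-2 and 0.365 ± 0.0044 (SD, n = 3) in TB IL-2nil, above 1 in every library of the first and below 1 in every library of the second. Rbl2 made up 17.2 ± 2.4% (SD, n = 3) of the transcripts of the 3 pocket proteins in TB IL-2 and 40.6 ± 4.8% in TB IL-2nil, and Rbl1 made up 49.0 ± 4.2% and 14.8 ± 1.9%. Their sums overlapped between the groups, at 92.1 to 154 TPM and 121.6 to 172 TPM. The summed TPM of the 6 E2F genes was 264 ± 50.4 (SD, n = 3) in TB IL-2 and 93.4 ± 9.6 in TB IL-2nil, and the share of E2f4 in it was 33.7 ± 11.7% and 55.9 ± 6.0%. E2f7 and E2f8 together held 24.7 ± 4.4% of this sum with IL-2 and 5.75 ± 2.5% without. E2f5 and E2f6 were not in the sum. These shares are sums of the values above and carry no test.

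**Figure D2:**
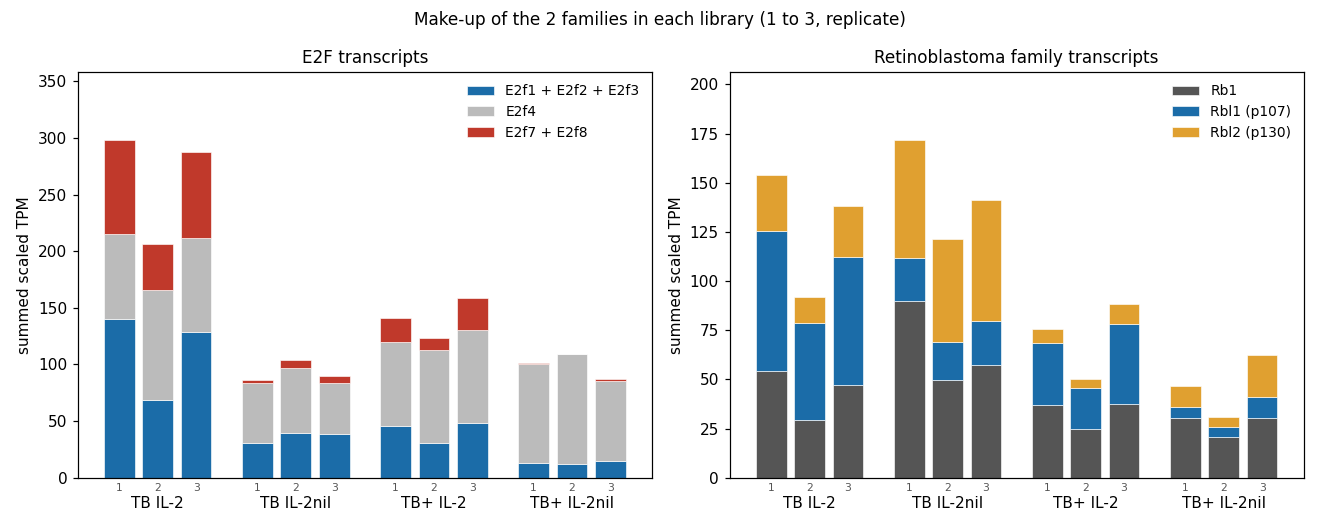
Summed scaled TPM (y axis, from 0) of E2f1 with E2f2 and E2f3, of E2f4 and of E2f7 with E2f8 (left), and of Rb1, Rbl1 and Rbl2 (right), as stacked bars for each library (x axis, replicates 1 to 3 in 4 groups). E2f4 fills 81.0 to 88.6% of the E2F bar in TB+ IL-2nil, and the Rbl1 segment exceeds the Rbl2 segment in every library with IL-2 and in none without.

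In TB IL-2, replicate 2 was the lowest of its group for 8 of the 10 genes and the highest for E2f4. Its short non-coding RNAs took 43.8% of the deposited signal, against 16.6% and 22.0% in the other two libraries, and the part of this in the values was not tested. With this library left out, each of the differences above kept its direction, and E2f1, E2f2, E2f3, E2f4, E2f7, E2f8, Rbl1 and Mybl2 passed the test.

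The second comparison asks the same question of stimulated cells, TB+ IL-2 against TB+ IL-2nil. Here 7 of the 10 genes were higher with IL-2 (E2f1, E2f2, E2f3, E2f7, E2f8, Rbl1 and Mybl2), where 12.9% of all genes were higher, and 0 were lower, where 8.4% were (limma, with 7 of the 10 at an unadjusted p under 0.05). Past 3-fold, 5 of the 10 were higher (E2f1, E2f7, E2f8, Rbl1 and Mybl2), against 3.62% of all genes in either direction. The median of the 10 was 1.70, against -0.04 over all genes. E2f1 had 22.6, 9.85 and 18.9 TPM in TB+ IL-2 and 0.829, 1.21 and 1.82 TPM in TB+ IL-2nil, a difference of 2.93 ± 0.34 (SE, adjusted p = 0.000352). Mybl2 had 14.8, 13.2 and 22.5 TPM against 1.23, 1.06 and 1.36 TPM. No library of one group reached the range of the other for E2f1 or Mybl2, and Mybl2 differed by 2.98 ± 0.25 (SE, adjusted p = 6.28e-05). E2f8 had 17.8, 8.35 and 23.4 TPM with IL-2 and 0.775, 0.338 and 1.41 TPM without, which is 3.18 ± 0.42 (SE, adjusted p = 0.00074). E2f7 had 4.004, 2.14 and 5.12 TPM with IL-2, and without it 1 library was listed at 0 and the others at 0.0906 and 0.410 TPM, so no ratio of means is given. Its log2 difference was 1.99 ± 0.36 (SE, adjusted p = 0.00337).

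In stimulated cells Rbl1 was again higher with IL-2, with 31.1, 20.7 and 40.8 TPM in TB+ IL-2 and 5.68, 5.06 and 10.8 TPM in TB+ IL-2nil, or 1.97 ± 0.29 (SE, adjusted p = 0.00115). Rbl2 had 7.44, 4.95 and 10.02 TPM against 10.4, 5.25 and 21.1 TPM, ranges that overlapped, and did not pass (-0.50, 95% interval -1.43 to 0.42, adjusted p = 0.422). Its interaction of IL-2 and PMA/I was 0.89 (95% interval -0.42 to 2.20, adjusted p = 0.399), so a change in the IL-2 difference of Rbl2 with stimulation was not resolved. The ratio of Rbl1 to Rbl2 was 4.14 ± 0.062 (SD, n = 3) in TB+ IL-2 and 0.673 ± 0.252 in TB+ IL-2nil, so that it lay above 1 in the 6 libraries with IL-2 and below 1 in the 6 without. Rb1 had 37.2, 24.7 and 37.6 TPM against 30.4, 20.6 and 30.4 TPM and did not pass (0.28, 95% interval -0.37 to 0.92, adjusted p = 0.534). E2f3 had 14.8, 15.4 and 16.3 TPM against 9.61, 9.62 and 8.42 TPM, a smaller gap than in unstimulated cells but without overlap, at 0.69 ± 0.15 (SE, adjusted p = 0.00814). E2f4 had 73.6, 81.9 and 82.4 TPM against 87.2, 97.1 and 70.7 TPM. The E2f4 ranges overlapped, and the difference of -0.09 had a 95% interval of -0.46 to 0.28. E2f2 passed at 1.43 ± 0.41 (SE, adjusted p = 0.0293), with 8.46, 5.35 and 12.95 TPM against 2.32, 1.32 and 4.55 TPM. It lost the call without the 2 relabelled libraries (1.15, adjusted p = 0.142), and also without TB+ IL-2 replicate 1 or 3 or TB+ IL-2nil replicate 1 or 2, and without a filter (adjusted p = 0.0992).

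**Figure D3:**
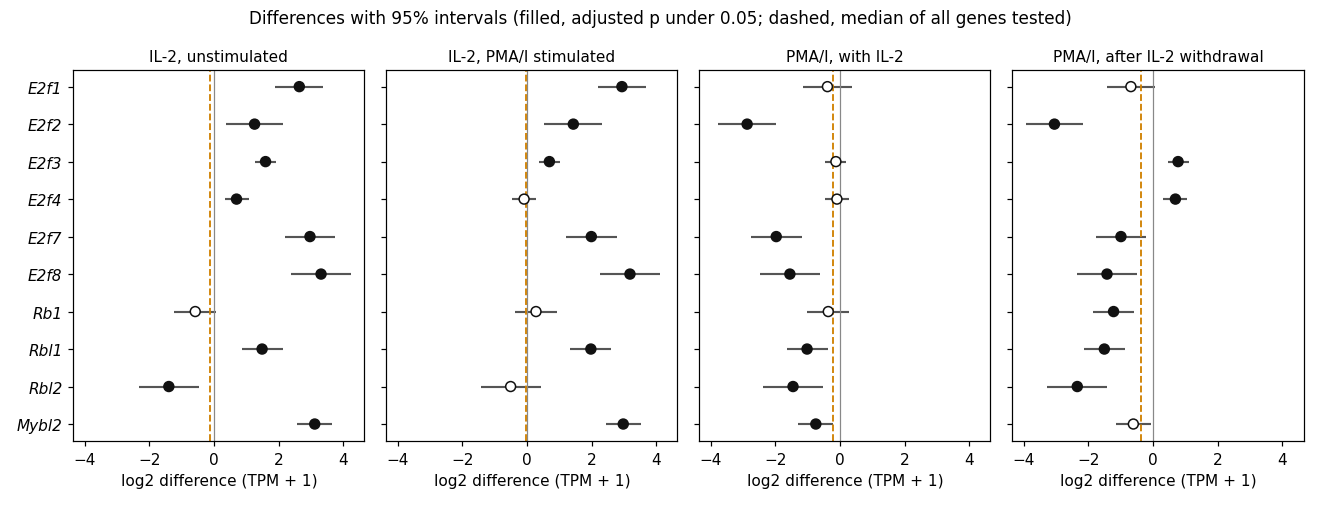
Log2 differences in TPM + 1 (x axis) of the 10 genes (y axis) in 4 comparisons (panels), with 95% intervals as lines, filled points for an adjusted p under 0.05 and the median of all genes tested as a dashed line. IL-2 shifts E2f1, E2f7, E2f8 and Mybl2 by 1.99 to 3.31 in both left panels, while E2f2 falls by 2.87 and 3.05 with PMA/I in both right panels.

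Stimulation was then compared with no stimulation, first in cells kept in IL-2. After 2 h of PMA/I, 0 of the 10 genes were higher and 6 were lower (E2f2, E2f7, E2f8, Rbl1, Rbl2 and Mybl2), where 11.8% of all genes were higher and 23.3% lower (limma, with 6 of the 10 at an unadjusted p under 0.05). Past 3-fold, 2 were lower (E2f2 and E2f7), against 7.04% of all genes in either direction. The median was -0.88 for the 10 genes and -0.22 for all genes. E2f2 fell by 2.87 on the log2 scale (SE 0.41, adjusted p = 0.000413), from 39.1 to 91.4 TPM in TB IL-2 to 5.35 to 12.95 TPM in TB+ IL-2. E2f7 fell by 1.97 (SE 0.36, adjusted p = 0.00176), and E2f8 fell by 1.55 (SE 0.42, adjusted p = 0.0159), each without overlap. Rbl2 fell by 1.45 (SE 0.42, adjusted p = 0.0207) and Rbl1 by 1.02 (SE 0.29, adjusted p = 0.0186), so that both p107 and p130 transcripts were lower. Mybl2 passed with a difference of -0.75 ± 0.25 (SE, adjusted p = 0.0364), although its ranges of 19.3 to 35.9 and 13.2 to 22.5 TPM overlapped. E2f1 (-0.39, 95% interval -1.13 to 0.36), E2f3 (-0.13, -0.45 to 0.20), E2f4 (-0.09, -0.47 to 0.28) and Rb1 (-0.36, -1.01 to 0.28) did not pass, and their ranges overlapped. With median-ratio scaling E2f3 and E2f4 were above 0, and Mybl2 lost its call with each of the 3 other scalings. Rbl1 lost its call with median-ratio scaling (adjusted p = 0.0536), and Rbl1 (0.0835) and Rbl2 (0.0535) without further scaling. Without a filter E2f8, Rbl1, Rbl2 and Mybl2 all missed the threshold, with adjusted p of 0.138 to 0.334, and with a pseudocount of 0.1 E2f8 (0.052) and Mybl2 (0.0519) did. Rbl2 and Mybl2 lost theirs without TB+ IL-2 replicate 1, and without TB IL-2 replicate 1 or 3, or without TB+ IL-2 replicate 2, only E2f2 and E2f7 of the 10 genes passed.

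In cells without IL-2, PMA/I raised 2 of the 10 genes (E2f3 and E2f4) and lowered 6 (E2f2, E2f7, E2f8, Rb1, Rbl1 and Rbl2), where 20.1% of all genes were higher and 41.1% lower. Past 3-fold, 2 were lower (E2f2 and Rbl2), against 18.5% of all genes in either direction. The median was -1.11 for the 10 genes and -0.38 for all genes. E2f2 went from 21.9, 31.8 and 30.9 TPM to 2.32, 1.32 and 4.55 TPM, a 10.4-fold lower mean, and fell by 3.05 (SE 0.41, adjusted p = 8.36e-05). Rbl2 went from 52.7 to 61.5 TPM down to 5.25 to 21.1 TPM and fell by 2.34 (SE 0.42, adjusted p = 0.000621). Rbl1 fell by 1.504 (SE 0.29, adjusted p = 0.000942) and Rb1 by 1.22 (SE 0.29, adjusted p = 0.00392), so that the summed TPM of the 3 pocket proteins was 145 ± 25.4 (SD, n = 3) before and 46.6 ± 15.7 after. E2f8 fell by 1.42 (SE 0.42, adjusted p = 0.013) and E2f7 by 0.99 (SE 0.36, adjusted p = 0.0312), from levels that were already low. E2f7 missed the threshold without the 2 relabelled libraries, at -0.89 with an adjusted p of 0.0908, and without TB IL-2nil replicate 2 or 3 or TB+ IL-2nil replicate 1 or 2. E2f8 missed it without TB IL-2nil replicate 2 (adjusted p = 0.0514) or TB+ IL-2nil replicate 2 (0.0513). With quantile normalization E2f7 (adjusted p = 0.116) and E2f8 (0.0724) lost their calls, and E2f7 did with median-ratio scaling (0.0577). Without a filter E2f7 (0.148), E2f8 (0.113) and Rb1 (0.0953) did.

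E2f3 was 0.77 ± 0.15 higher (SE, adjusted p = 0.000913) and E2f4 0.69 ± 0.17 higher (SE, adjusted p = 0.00425) after PMA/I in cells without IL-2, neither with overlap. With TPM not scaled further, these were 0.29 (adjusted p = 0.41) and 0.14 (adjusted p = 0.654), while the median of all genes moved to -0.78. Relative to the median of all genes, E2f3 was higher by 1.06 to 1.45 and E2f4 by 0.63 to 1.16 over the 4 scalings used. E2f4 made up 85.4 ± 3.9% (SD, n = 3) of the summed TPM of the same 6 E2F genes in TB+ IL-2nil, against 55.9 ± 6.0% in TB IL-2nil. E2f5 and E2f6 were left out of that sum. Their means were 18.2 and 8.11 TPM in TB+ IL-2nil and 3.11 and 8.09 TPM in TB IL-2nil. E2f1 was at -0.68 (95% interval -1.43 to 0.06, adjusted p = 0.101) and Mybl2 at -0.61 (95% interval -1.15 to -0.06, adjusted p = 0.0513). Neither passed, although the groups did not overlap for either gene. With the replicate block both passed, with adjusted p of 0.0334 for E2f1 and 0.0167 for Mybl2. Of 24 alternatives, the replicate block among them, E2f1 passed in 3 and Mybl2 in 9.

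Whether PMA/I acted differently with and without IL-2 was tested by the interaction. Of the 10 genes 0 had a positive and 1 a negative interaction past the threshold, where 1.57% of all genes had a positive and 2.66% a negative one (limma, with 2 of the 10 at an unadjusted p under 0.05). That gene was E2f3, at -0.90 ± 0.21 (SE, adjusted p = 0.0391). Its difference with PMA/I was -0.13 with IL-2 and 0.77 without. The call was lost without both relabelled libraries (adjusted p = 0.129) and without 11 of the 12 libraries taken out 1 at a time, and it held only without TB+ IL-2nil replicate 3. For E2f2, the interaction was 0.18 with a 95% interval of -1.09 to 1.44, so the data do not resolve whether its fall differed between the 2 conditions. With the replicate block, E2f4 (-0.79, adjusted p = 0.0346) and Rb1 (0.86, adjusted p = 0.0351) also passed.

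Placement of the 2 libraries decided most of these calls. Taken by their labels, 0 of the 10 genes passed in either IL-2 comparison, in PMA/I with IL-2 or in the interaction, and 2 passed in PMA/I without IL-2 (E2f2 with an adjusted p of 0.039 and Rbl1 with 0.0303). Few of the 12442 genes tested passed by label either. There were 15 with IL-2 in unstimulated cells, 27 in stimulated cells, 62 with PMA/I in IL-2, 0 in the interaction and 669 with PMA/I after withdrawal. Without both libraries, 7 of the 10 genes passed with IL-2 in unstimulated cells, 6 with IL-2 in stimulated cells, 6 with PMA/I in IL-2 and 7 with PMA/I after withdrawal. Over all genes, the counts in the same order were 3994, 1200, 3819 and 6641. The differences of E2f1 (2.71), E2f8 (3.47) and Mybl2 (3.21) with IL-2 in unstimulated cells were then close to those with all libraries.

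The other genes of the pathway were counted from lists that were chosen with earlier results of these data known. Of 32 genes that E2F factors turn on at the G1/S transition, 31 were higher with IL-2 in unstimulated cells and 31 in stimulated cells, with medians of 2.76 and 2.78, and the counts were 31 and 29 without the 2 relabelled libraries. Over all genes tested, 17.3% and 12.9% were higher in these 2 comparisons. Rrm2, the small subunit of ribonucleotide reductase, was at 254 ± 57.7 TPM (SD, n = 3) in TB IL-2 and 19.6 ± 4.1 TPM in TB IL-2nil. Uhrf1, which brings DNA methylation to newly made DNA, differed by 3.74 (adjusted p = 0.000146 by limma). Tyms was the exception in both comparisons, at 56.0 ± 14.1 TPM in TB IL-2 and 40.2 ± 4.9 TPM in TB IL-2nil (SD, n = 3, adjusted p = 0.0884 by limma). With PMA/I in IL-2, 0 of the 32 were higher and 10 lower, where 23.3% of all genes were lower, and after withdrawal 1 was higher and 18 lower, where 41.1% were. The 1 higher was Pcna, the sliding clamp of DNA polymerases, at 112 ± 6.6 TPM before and 297 ± 42.7 TPM after (SD, n = 3). Without the 2 relabelled libraries, these counts of lower genes were 15 and 10. By label, 2 and 1 of the 32 were higher in the IL-2 comparisons, and 2 were lower in each PMA/I comparison.

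Of 25 genes that MuvB complexes control at G2/M, 14 were higher with IL-2 in unstimulated and 14 in stimulated cells, and the second count was 7 without the 2 relabelled libraries. Over all genes tested, 17.3% and 12.9% were higher. The list's medians of 2.03 and 2.35 were lower than those of the G1/S list. Plk1, a mitotic kinase, had 76.8 ± 17.4 TPM (SD, n = 3) in TB IL-2 and 19.9 ± 12.6 TPM in TB IL-2nil (adjusted p = 0.0141 by limma). With PMA/I, 5 of the 25 were lower in IL-2 and 8 after withdrawal, shares below the 23.3% and 41.1% of all genes, and 0 were higher in either. The median differences of the list were nevertheless -1.06 in IL-2 and -1.43 after withdrawal, against -0.22 and -0.38 over all genes. Without the 2 relabelled libraries the counts of lower genes were 6 and 4. By label, 0 of the 25 passed with IL-2 in either comparison or with PMA/I in IL-2, and 2 were lower with PMA/I after withdrawal. Of 7 genes for MuvB subunits and their partners, 5 were higher with IL-2 in each comparison, among them Foxm1, the partner of MuvB that follows Mybl2 (2.14 in unstimulated cells, adjusted p = 0.00312 by limma). The count in stimulated cells was 3 without the 2 relabelled libraries. By label, 0 genes of this list passed in either IL-2 comparison, and the same held for the kinases and cyclins, the kinase inhibitors and the further E2F and DP genes below.

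**Figure D4:**
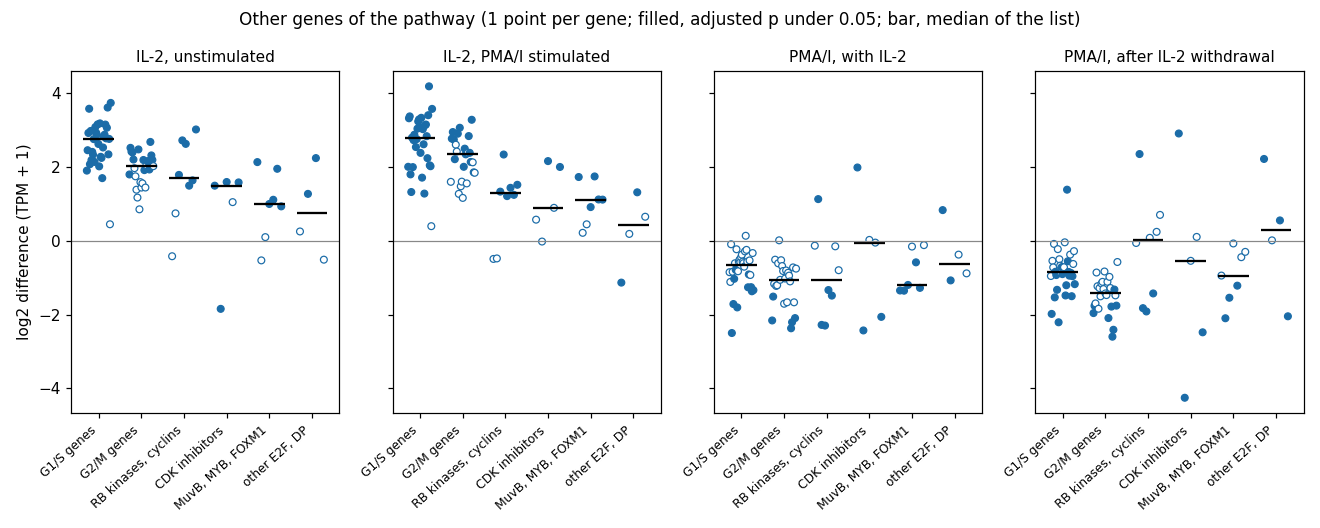
Log2 differences in TPM + 1 (y axis) of the genes in 6 lists of the pathway (x axis) in 4 comparisons (panels), with filled points for an adjusted p under 0.05 and a bar at each list's median. The G1/S list has medians of 2.76 and 2.78 in the IL-2 comparisons and -0.66 and -0.84 in the PMA/I comparisons.

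Upstream of the pocket proteins, 6 of 8 genes for the kinases and cyclins that phosphorylate them were higher with IL-2 in unstimulated cells and 6 in stimulated cells, the latter 2 without the relabelled libraries. Over all genes tested, 17.3% and 12.9% were higher. Cdk6 had 117 ± 44.4 TPM (SD, n = 3) in TB IL-2 and 13.6 ± 6.6 TPM in TB IL-2nil. The D-type cyclins parted under PMA/I. Ccnd2 was at 162 ± 48.2 TPM in TB IL-2 and 355 ± 94.1 TPM in TB+ IL-2 (SD, n = 3), a difference of 1.13 (adjusted p = 0.0179 by limma). Ccnd3 went from 260.3 ± 32.1 TPM to 55.4 ± 20.2 TPM (SD, n = 3), a difference of -2.28 (adjusted p = 0.00036 by limma). Ccne1, the G1/S cyclin that is itself an E2F target, went from 45.5 ± 11.1 TPM to 8.81 ± 4.3 TPM (SD, n = 3).

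Of 7 genes for inhibitors of these kinases, 5 passed the filter. In unstimulated cells 3 were higher with IL-2 and 1 lower, where 17.3% of all genes were higher and 22.3% lower. Without the 2 relabelled libraries 1 was higher and 1 lower. The lower one was Cdkn1b, which encodes p27 of resting cells, at 58.8 ± 19.8 TPM in TB IL-2 and 206.8 ± 21.5 TPM in TB IL-2nil (SD, n = 3, adjusted p = 0.00355 by limma). With PMA/I, Cdkn1b was at 9.79 ± 1.9 TPM in TB+ IL-2 and 11.1 ± 5.9 TPM in TB+ IL-2nil (SD, n = 3). It was thus, like Rbl2, highest in TB IL-2nil and low after PMA/I. Cdkn1a, which encodes p21, was higher with PMA/I, at 309.9 ± 144.5 TPM in TB+ IL-2 and 87.2 ± 70.4 TPM in TB IL-2 (SD, n = 3, adjusted p = 0.0165 by limma).

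Among 4 further genes for E2F and DP proteins, Tfdp1, which encodes the DP partner of most E2F factors, had 126 ± 6.7 TPM in TB IL-2 and 26.0 ± 3.6 TPM in TB IL-2nil (SD, n = 3, adjusted p = 2.78e-05 by limma). It also passed in stimulated cells, at 97.3 ± 5.6 TPM against 39.02 ± 8.5 TPM (SD, n = 3). E2f6, a repressor without a pocket protein partner, was higher with IL-2 in unstimulated cells (20.95 ± 3.5 against 8.09 ± 1.7 TPM, SD, n = 3). In stimulated cells it had 9.35 ± 0.4 against 8.11 ± 0.9 TPM (SD, n = 3), which did not pass. E2f5, a repressor related to E2f4, was highest in TB+ IL-2nil, at 18.2 ± 4.3 TPM, and lay at 3.11 ± 0.9 TPM in TB IL-2nil (SD, n = 3, adjusted p = 1.51e-05 by limma).

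The genes whose pattern over the 12 libraries was most like each member were listed by Pearson correlation of log2(TPM + 1), among genes with a mean of at least 5 TPM, as a description. The libraries share the 4 groups, so high correlations are common. E2f1 was close to Pole and Pola1 (r = 0.989 and 0.988), Mybl2 most like Rrm1, Pole and Exo1 (0.991 to 0.992) and E2f8 most like Clspn, Uhrf1 and Chaf1a (0.992 to 0.997), which are genes of DNA replication, repair and chromatin assembly. E2f7 was most like Nsl1, Rad54b and Brip1 (0.986 to 0.990). E2f2 was most like Primpol, B3gat3 and Dnajc17 (0.986 to 0.989), and its closest member was Rbl1 (0.868). E2f3 was most like Nme1, Pcna and Erp29 (0.966 to 0.969), and E2f4 most like Aimp2, Kdelr2 and Psmd7 (0.956 to 0.970). Within the group, E2f7 and E2f8 (0.979) and E2f1 and Mybl2 (0.981) were closest to each other, and E2f4 and Rbl2 were the least alike pair (-0.811).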

How the data were processed

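RNA-Seq had been done on 12 libraries of CD4 T blast cells, 3 in each of 4 groups. The authors used Trimmomatic 0.32 for trimming, HISAT2 2.1.0 for alignment to mm9 and StringTie 1.3.3 to quantify RefSeq models, per the submitters' processing notes and the methods, and deposited FPKM values without counts. The number of reads behind a value is therefore unknown, and no counting interval is given. The methods name TPM, but the deposited values of a library sum to 193815 to 420487.

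Here values were rescaled to TPM (a sum of 1000000), genes that reached no more than 1 TPM in any library were dropped, the 75th percentile was made equal in all libraries, and log2(TPM + 1) values were fitted over 4 groups with limma 3.58.1 (R 4.3.3; 8 residual degrees of freedom), after a test on simulated data. Calls needed an adjusted p under 0.05. The genes named are the 10 members, the 3 genes most like each, and examples from fixed lists of the pathway, of which 1 gene is not reported here. Members and lists were chosen with earlier results of these data known. Tyms, Pcna and the other examples of the lists were picked after their values were seen. Tables and plots were made in Python 3.11.15 (numpy 2.4.6, pandas 2.3.3, matplotlib 3.10.9). Gene positions are those of GENCODE M1 (mm9), and promoter sequences are those of RefSeq (GRCm38.p6), and the positions of the 2 builds cannot be set beside each other.

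Libraries with the same replicate number in the labels deviated together from their group means (18 of 18 correlations over 0.1, from 0.101 to 0.531), so the replicate block is given where it changes a call. Alternatives were the placement of the 2 libraries, the pseudocount, the filter, the scaling, the model and leaving out each library. The counts of the lists by placement were added after seeing the data. Columns of the study's table of differentially expressed genes were used only to place the libraries.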

Additional observations from a re-analysis of the deposited data

Results flagged for a closer look

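By the interaction term (limma), the effect of PMA/I passed as different with and without IL-2 for 1 of the 10 genes and 4 genes of the lists. Over all genes tested, 1.57% had a positive and 2.66% a negative interaction past the threshold. The effect with IL-2 minus the effect without it was -0.90 for E2f3 (adjusted p = 0.0391), -1.39 for E2f5 (0.0393), -1.09 for E2f6 (0.0362), -1.25 for Pcna (0.0333) and -1.78 for Cdc6, which loads the replicative helicase (0.0434). Mean Cdc6 went from 25.8 to 3.67 TPM with IL-2 and from 1.19 to 0.307 TPM without it. At such low TPM this scale makes changes appear smaller than they are. With the replicate block the adjusted p of these 5 genes lay between 0.00804 and 0.0278. Without the 2 relabelled libraries it lay between 0.0626 and 0.133, and none passed, where 4 of all genes tested did. By label the differences are the same by construction, since both libraries enter this term with the same sign, and the adjusted p was 0.914 for each.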

How the results depend on the processing

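Of 1190 values of single genes under an alternative, 1035 kept their direction and their side of the threshold, 109 kept the direction and lost the call, 16 gained one and 30 changed sign, none of them past the test. For the 5 counts of genes that passed (9 with IL-2 unstimulated, 6 with PMA/I in IL-2, 8 with PMA/I after withdrawal, 7 with IL-2 stimulated and 1 for the interaction), taking the libraries by label gave 0, 0, 2, 0 and 0. Over all genes tested, the counts by label were 15, 62, 669, 27 and 0. The interaction count was 0 without the 2 relabelled libraries, with a pseudocount of 0.1, without a filter and without scaling, and 3 with the replicate block. PMA/I in IL-2 gave 2 without a filter and 3 without scaling, and PMA/I after withdrawal gave 5 without a filter. Leaving out 1 library at a time gave 7 to 9, 2 to 6, 6 to 9, 6 to 7 and 0 to 2. The replicate block changed no call other than those given with the results. The cause was not tested, except that without a filter the upper quartile is taken over all gene names, which moved the median of all genes by up to 0.34, and that scaling alone moved it by up to 0.40.

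Signs changed for Rbl2 with IL-2 in stimulated cells by label (0.33), for E2f2 in the interaction without the 2 libraries (-0.17), and with a pseudocount of 0.1 for E2f7 (0.43), E2f8 (0.58) and Mybl2 (0.13) in the interaction. For PMA/I in IL-2, E2f3 was at 0.16 without a filter, 0.086 with quantile normalization and 0.11 with median-ratio scaling, and E2f4 at 0.21 without a filter and 0.15 with median-ratio scaling. Without scaling, E2f4 was at 0.30 with IL-2 in stimulated cells, and E2f8 (0.046) and Mybl2 (0.091) turned in the interaction. Quantile normalization turned E2f1 (-0.046), E2f2 (-0.12) and Rbl1 (-0.00049) in the interaction, and leaving out short non-coding RNAs turned E2f8 (0.025). With 1 library left out, the interaction ran from -0.041 to 0.63 for E2f1, -0.21 to 0.51 for E2f2, -0.42 to 0.28 for E2f8 and -0.40 to 0.027 for Mybl2, and E2f4 ran from -0.18 to 0.0029 for PMA/I in IL-2 and from -0.21 to 0.013 for IL-2 in stimulated cells. Values under about 1 TPM, such as those of E2f7 and E2f8 in TB+ IL-2nil, are the least certain.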
